A study of Mus musculus with 8 samples.

Results

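The importin alpha family of mouse testis is described here through its 6 genes, Kpna1, Kpna2, Kpna3, Kpna4, Kpna6 and Kpna7, out of 24988 genes measured by RNA sequencing. The members were taken as the rows whose Ensembl identifier pairs with these symbols, and all 6 were found and passed the filter on low values. Total RNA came from adult testis in 8 libraries, of which 4 carry the genotype label Kpna2-/- and 4 the label WT. The labels give neither the strain, nor the age in weeks, nor the part of Kpna2 that was deleted, nor whether the 4 libraries of a group are 4 animals. The p-values therefore speak of the spread among libraries, which may be technical. By label alone the groups are called the WT set and the knockout set.

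Importin alpha proteins are adaptors. Each binds the nuclear localization signal of a cargo with its armadillo repeats and binds importin beta with its N-terminal domain, and the complex then passes the nuclear pore. In the nucleus the GTPase Ran in its GTP form takes the complex apart, and the exporter encoded by Cse1l returns importin alpha to the cytoplasm. Kpna1 and Kpna6 form a subfamily, Kpna3 and Kpna4 another, and Kpna2 and Kpna7 the last, of which Kpna7 is best known from the oocyte and early embryo. Male germ cells are known to switch between these adaptors as they mature, and mice without Kpna6 are known to be infertile in the male.

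Values are CPM, that is reads scaled by a library size of the authors, given as mean ± SD (n = 4 in each set). The reads recovered for the measured genes came to 31133443 to 37797812 per library. Log2 differences are those of log2(CPM + 0.5), labelled knockout minus labelled wild type, and a gene is said to rise or fall where the limma adjusted p was under 0.05. Limma called 16.9% of the 22027 tested genes, 8.62% higher and 8.32% lower. Testis germ cell markers were high, with 183411 to 247205 reads per library for Prm2, a protamine of sperm chromatin. The summed level of 7 peritubular myoid markers was 388 to 458 CPM in the WT set and 323 to 343 CPM in the knockout set. That of 6 endothelial markers was 36.9 to 40.6 and 28.5 to 35.1 CPM, with no marker at 0. Limma called 5 of the 7 myoid and 2 of the 6 endothelial markers, all lower. Pecam1 and Cdh5, of the endothelial list, were not called (limma adjusted p = 0.69 and 0.46). Of the 8 Leydig markers 4 fell and 1 rose, with a median log2 difference of -0.34 beside -0.35 for the myoid list, although their summed levels overlapped. Star, the cholesterol carrier of steroid synthesis, fell from 116 ± 27.9 to 47.4 ± 20.9 CPM. Insl3, of the same list, was not called, at 434 ± 16.4 and 401 ± 86.9 CPM with overlapping groups (limma adjusted p = 0.471). Of 10 Sertoli markers 2 fell, among them Sox9, whereas Wt1 was not called (limma adjusted p = 0.0972). The sums of the Sertoli list, of the macrophage list and of the 4 germ cell lists overlapped. Of 10 spermatogonial markers 2 fell, and of 10 spermatocyte markers 1 rose and 1 fell. None of the round spermatid, elongating spermatid or macrophage markers was called. Of 3 red blood cell markers 1 fell, and their sums overlapped. The part of these cell types in the differences below was not tested, and in bulk testis fewer cells of a type and less RNA per cell cannot be told apart.

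The 6 coding sequences are far enough apart for reads to be told from each other. Of all stretches of 60 bases without a gap, the one most alike across the family holds 36 positions that are the same in all 6 genes. It is shown because it has the most positions shared by the whole family, with capitals for bases unlike Kpna2, where it covers coding bases 405 to 464 (GENCODE M21 transcripts, GRCm38, 5′ to 3′).
Kpna2: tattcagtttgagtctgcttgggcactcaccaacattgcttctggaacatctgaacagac
Kpna7: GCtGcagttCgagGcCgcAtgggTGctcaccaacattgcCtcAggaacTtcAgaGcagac
Kpna3: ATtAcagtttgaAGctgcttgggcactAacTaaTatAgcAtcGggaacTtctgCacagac
Kpna4: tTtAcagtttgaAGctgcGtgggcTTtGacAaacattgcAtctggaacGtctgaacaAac
Kpna1: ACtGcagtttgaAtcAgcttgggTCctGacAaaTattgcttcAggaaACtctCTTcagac
Kpna6: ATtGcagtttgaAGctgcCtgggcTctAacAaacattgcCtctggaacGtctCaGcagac
Even here the other 5 genes differ from Kpna2 at 12 to 16 of the 60 bases. Over the whole coding sequence, Kpna3 and Kpna4 share 75.0% of aligned bases and Kpna1 and Kpna6 share 73.0%, whereas the other 13 pairs share 48.4% to 55.7%. No window of 50 bases from any member's annotated transcripts occurs in the transcripts of another member.

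Kpna2 is the exception with respect to genes outside the family. Of the 50-base windows in its annotated transcripts, 62.6% occur letter for letter in transcripts of other genes, against 0.85% for Kpna7, 0.0225% for Kpna4 and 0 for Kpna1, Kpna3 and Kpna6. Nearly all of these lie in Gm10184 (ENSMUSG00000066878), a gene without introns on chromosome 17 (89908462 to 89910449, minus strand, GRCm38) that GENCODE lists as protein-coding and RefSeq as a pseudogene. Gm10184 was singled out after its sequence and values had been seen. Its 1988 bases match the main Kpna2 transcript from base 74 to its end, with 99.4% of 1981 aligned bases the same and an unbroken identical run of 1101 bases. In the coding part of 1587 bases the 2 genes differ at 2 positions. Both positions fall in the stretch below (capitals mark the bases that differ), which is shown because these are the letters that can assign a read of the coding part to Kpna2 or to Gm10184.
Kpna2: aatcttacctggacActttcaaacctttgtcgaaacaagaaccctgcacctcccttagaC
Gm10184: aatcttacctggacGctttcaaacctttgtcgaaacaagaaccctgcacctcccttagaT
These are coding bases 682 to 741 of Kpna2 and bases 815 to 874 of the Gm10184 transcript. In the main Kpna2 transcript 91.0% of the 50-base windows and 88.2% of the 100-base windows are also in Gm10184. The sources used here do not say how reads that match both places were treated, and the division of reads between the 2 genes is uncertain. A further annotated copy, the processed pseudogene Kpna2-ps on chromosome 17, shares 94.8% of 1563 aligned bases and was not analysed here.

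**Figure D1:**
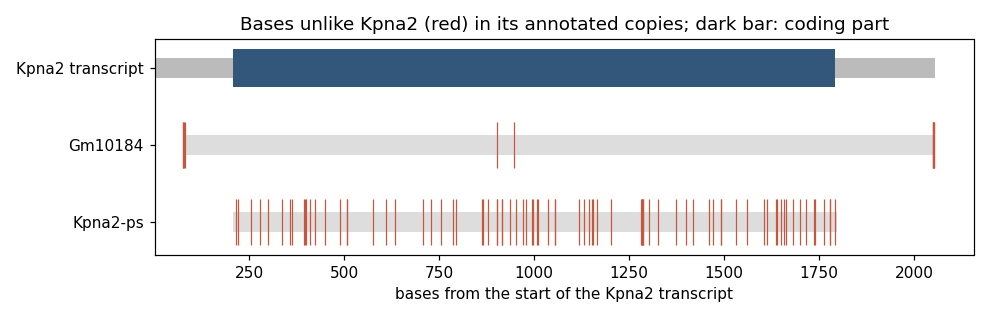
Map of the main Kpna2 transcript (top, grey, with its coding part as the dark bar) and of its annotated copies, drawn along bases from the transcript start. Red ticks mark bases unlike Kpna2: Gm10184 has 11, of which 2 are in the coding part, and Kpna2-ps has 82.

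Kpna2 itself (ENSMUSG00000018362; chromosome 11, 106988629 to 106999541, minus strand, GRCm38) was listed at 13.97, 15.1, 14.04 and 12.4 CPM in wild-type replicates 1 to 4 and at 15.3, 20.2, 19.4 and 21.7 CPM in the knockout set. The groups did not overlap, and the lowest value of the knockout set, in replicate 1, was the closest to the WT set. The row of the targeted gene was therefore 1.38-fold higher in the knockout set and shows no loss of Kpna2 RNA. The deleted part is not given and most of the transcript is shared with Gm10184, so this row does not test the label. Every direction given here is that of the labels. The log2 difference was 0.44 with a 95% interval of 0.23 to 0.66 (limma adjusted p = 0.0079). Kpna2 was the 1 member of 6 that was called, beside 16.9% of all tested genes. Groups without overlap were seen for 20.9% of all tested genes.

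Gm10184, the near-identical copy, went the other way. It was listed at 88.1, 88.0, 95.2 and 80.3 CPM in the WT set and at 42.4, 49.1, 45.7 and 53.3 CPM in the knockout set. Every value in the knockout set was below every value in the WT set, and the mean fell from 87.9 ± 6.11 to 47.6 ± 4.70 CPM. The log2 difference was -0.88 with an interval of -1.04 to -0.72 (limma adjusted p = 2.04e-06).

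Taken as a sum, the reads listed under Kpna2 and Gm10184 were lower in the knockout set. The sum was 102.1, 103.1, 109.3 and 92.7 CPM in the WT set and 57.6, 69.3, 65.1 and 75.1 CPM in the knockout set. The groups did not overlap, and the mean went from 101.8 ± 6.86 to 66.8 ± 7.34 CPM, 34.4% lower. With the sum in place of the Kpna2 row and the whole table fitted again, the log2 difference was -0.61 with an interval of -0.77 to -0.45 (limma adjusted p = 8.28e-05). The share of this sum that was listed under Kpna2 was 12.9% to 14.6% in the WT set and 26.5% to 29.8% in the knockout set. The row listed under Kpna2 was higher in the knockout set, and the sum, most of which was listed under Gm10184 in both sets, was lower. The sum alone does not give the direction at Kpna2. The sum was chosen after the data had been seen, and whether the assignment of reads sets the rise at Kpna2 was not tested.

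**Figure D2:**
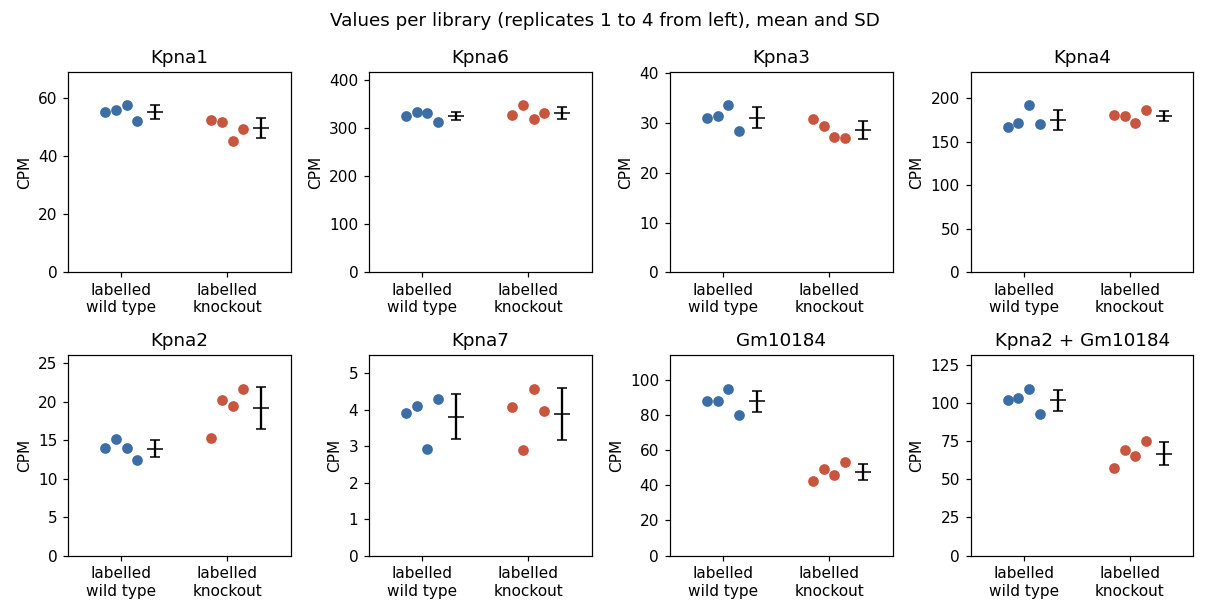
CPM in each library for the 6 importin alpha genes, for Gm10184 and for the sum of Kpna2 and Gm10184, with the mean and SD (n = 4) beside the points, and every axis starting at 0. Kpna2 is higher (19.2 against 13.9 CPM) and Gm10184 lower (47.6 against 87.9 CPM) in the knockout set, while the points of Kpna1, Kpna3, Kpna4, Kpna6 and Kpna7 overlap between the groups.

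Kpna7, the other member of the Kpna2 subfamily (chromosome 5, 144983519 to 145084030, minus strand, GRCm38), was the lowest of the 6. It stood at 3.92, 4.10, 2.93 and 4.30 CPM in the WT set and at 4.06, 2.89, 4.58 and 3.96 CPM in the knockout set, from 97 to 164 reads per library. The groups lay over each other, and the interval of the log2 difference, -0.29 to 0.33, leaves room for a change of up to 1.26-fold higher or to 0.815 of the wild-type level (limma adjusted p = 0.956). The annotated span of Kpna7 holds other testis genes. Among them Gm4871, on the same strand, rose from 27.6 ± 1.63 to 40.8 ± 6.98 CPM and 1700018F24Rik, on the opposite strand, fell from 81.4 ± 3.17 to 59.0 ± 2.91 CPM (limma adjusted p = 0.00204 and 4.56e-05). Arpc1a, also on the opposite strand and overlapping the edge of the span, was not called (limma adjusted p = 0.0997). The strand setting of the read counting is not given, so reads from any bases that these genes share are uncertain. Of the 50-base windows in the annotated Kpna7 transcripts, 0.85% occur, on either strand, in transcripts of other genes, and of the 100-base windows 0.

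Kpna6 (chromosome 4, 129643980 to 129672767, minus strand, GRCm38) gave the most reads of the family. It stood at 324, 332, 331 and 312 CPM in the WT set and at 326, 347, 318 and 330 CPM in the knockout set. The lowest and highest libraries of the 2 groups interleaved. Its log2 difference was 0.02 with an interval of -0.07 to 0.12, so that the fit bounds a rise at 1.09-fold (limma adjusted p = 0.775).

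Kpna1, the subfamily partner of Kpna6 (chromosome 16, 35978750 to 36037131, plus strand, GRCm38), stood at 55.2, 56.1, 57.6 and 52.2 CPM in the WT set. In the knockout set it stood at 52.4, 52.0, 45.2 and 49.4 CPM. In 3 libraries of the knockout set the value was below the whole WT set, and in replicate 1 it was just above the lowest WT value. The log2 difference of -0.15, with an interval of -0.28 to -0.02, had an unadjusted limma p of 0.0231 and an adjusted p of 0.099, which did not pass. Without knockout replicate 3, the lowest library, it was -0.11. In that library Gm15564, an antisense gene whose annotated span overlaps the first part of Kpna1, was also at its highest, 33.8 CPM. The other 7 libraries had 17.1 to 26.0 CPM. No 50-base window of the annotated Kpna1 transcripts occurs, on either strand, in transcripts of another gene. The part of Gm15564 in the Kpna1 value was not tested.

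Kpna4 (chromosome 3, 69067149 to 69127113, minus strand, GRCm38) stood at 167, 172, 192 and 169.5 CPM in the WT set and at 181, 180, 172 and 186 CPM in the knockout set. The highest value of all was that of wild-type replicate 3. The log2 difference was 0.04 with an interval of -0.07 to 0.15 (limma adjusted p = 0.663). Its partner Kpna3 (chromosome 14, 61365211 to 61439874, minus strand, GRCm38) stood at 31.04, 31.4, 33.6 and 28.4 CPM against 30.9, 29.4, 27.3 and 27.1 CPM. Here too the groups overlapped, and the log2 difference of -0.11, with an interval of -0.26 to 0.03, did not pass (limma adjusted p = 0.283).

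The median size of the log2 difference was 0.08 over the 6 members and 0.13 over all tested genes. These medians do not compare like with like, since the size of a difference grows with its error. The median SE over all tested genes was 0.10. That of Kpna1, Kpna3, Kpna4 and Kpna6 was 0.04 to 0.07, that of Kpna2 0.10 and that of Kpna7 0.15. Library values varied more than read counting alone would give: the SD within a group was 1.75 to 4.92 times the counting error for the 6 members. Kpna7 had the widest relative spread, 16.0% and 18.4% of its mean in the WT and the knockout set, beside a counting error of 8.81% and 8.87%. Kpna6 had among the narrowest, at 2.76% and 3.67%.

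To compare the members with each other, CPM were divided by the length of each gene's merged exons in GENCODE M21. On this scale of CPM per kb the order of the means in the WT set was Kpna6, Kpna4, Kpna3, Kpna1, Kpna2 and Kpna7. Kpna6 stood at 48.3 ± 1.33 and Kpna4 at 19.6 ± 1.24 CPM per kb in the WT set, and at 49.1 ± 1.80 and 20.1 ± 0.645 in the knockout set. Kpna3 and Kpna1 followed at 7.24 ± 0.5 and 6.52 ± 0.270 CPM per kb in the WT set and at 6.67 ± 0.419 and 5.86 ± 0.390 in the knockout set, with ranges that overlap over the 8 libraries although Kpna3 was above Kpna1 in each of them. The order of this pair turns with the length used: by the longest annotated transcript Kpna1 made up 10.5% to 10.7% and Kpna3 7.04% to 7.69% of the family sum in the WT set. Kpna2 was listed at 4.83 ± 0.385 and 6.67 ± 0.961 CPM per kb. Kpna2 was below Kpna1 in 4 of 4 libraries of the WT set, without overlap (4.31 to 5.25 against 6.15 to 6.79 CPM per kb). It was above Kpna1 in 3 of 4 libraries of the knockout set. That order in the knockout set also depends on the length used. By the longest annotated transcript the mean shares there were 8.78% for Kpna2 and 9.31% for Kpna1. Kpna7 came last at 1.22 ± 0.194 and 1.24 ± 0.227 CPM per kb, below every value of Kpna2. Gm10184, at 44.2 ± 3.07 and 24.0 ± 2.37 CPM per kb, was close to Kpna6 in the WT set and between Kpna6 and Kpna4 in the knockout set.

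The sum of the 6 genes was 87.7 ± 3.11 CPM per kb in the WT set and 89.6 ± 2.69 in the knockout set, with overlapping ranges of 83.9 to 91.1 and 86.4 to 92.6. Kpna6 made up 55.1% ± 0.704 and 54.7% ± 0.664 of it, and Kpna4 22.3% ± 0.915 and 22.5% ± 0.546. Kpna1 took 7.34% to 7.50% of the sum in the WT set and 6.17% to 6.96% in the knockout set, without overlap. Kpna2 took 5.14% to 5.89% and 5.99% to 8.32%, also without overlap, in the other direction. The shares of Kpna3 (8.25% and 7.45% in the mean) and Kpna7 (1.39% and 1.38%) overlapped. Shares within a sum are not independent of each other, and no test was made of them.

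With the reads of Gm10184 counted as Kpna2, the makeup of the family looks different. Divided by the merged exons of Kpna2, they made it 29.9% ± 0.766 of the sum in the WT set and 21.9% ± 1.85 in the knockout set, second after Kpna6 in both. By the longest transcripts it made up 33.8% and 25.1%, also second. At each gene's own length, Gm10184 was at 44.2, Kpna2 at 4.83 and Kpna6 at 48.3 CPM per kb in the WT set, so the rank there depends on the length used. By the merged exons of Kpna2 the other shares were as follows. Kpna6 went from 40.8% ± 0.852 to 46.2% ± 0.959 and Kpna4 from 16.6% ± 0.633 to 19.0% ± 0.518, without overlap, while the shares of Kpna1 overlapped, at 5.47% to 5.54% and 5.21% to 5.97%. The CPM of Kpna6 and Kpna4 themselves overlap between the groups, so this separation is one of shares, in a sum whose Kpna2 portion is lower in the knockout set.

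**Figure D3:**
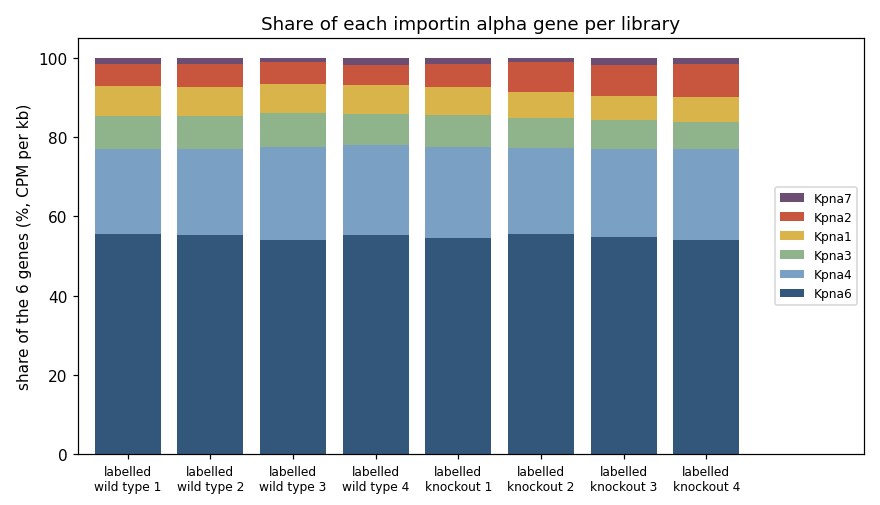
Share of each importin alpha gene in the sum of the 6, in percent of CPM per kb, as stacked bars for the 8 libraries, with reads as listed per gene. Kpna6 takes 54.0% to 55.6% in every library, and the Kpna2 segment is 5.14% to 5.89% in the WT set and 5.99% to 8.32% in the knockout set.

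The partners of importin alpha were taken from a list of 31 genes: importin beta and its relatives, exportins, the Ran cycle, nucleoporins at which importin alpha complexes dock or come apart, and 2 spindle factors that importins bind. None of the 31 was called by limma, beside 16.9% of all tested genes, and none by edgeR, which called 16.8% of all genes (8.61% higher and 8.16% lower). An unadjusted limma p under 0.05 was found for 4 of the 31. Over all tested genes that share is at least 16.9%, since every called gene meets this bound. DESeq2 called 2, Rcc1 higher and Tpx2 lower, beside 18.1% of all genes (9.31% higher and 8.75% lower). The log2 differences ran from -0.17 to 0.18 with a median of 0.02, 19 above 0 and 12 below.

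Kpnb1, importin beta, which carries the importin alpha complex through the pore, stood at 236 ± 12.7 and 243 ± 14.3 CPM in the WT and the knockout set (limma adjusted p = 0.634). Cse1l, which exports importin alpha from the nucleus, stood at 81.6 ± 5.46 and 87.2 ± 6.72 CPM, with an interval of the log2 difference of -0.05 to 0.23 (limma adjusted p = 0.364). Ran stood at 307 ± 9.01 and 299 ± 25 CPM (limma adjusted p = 0.702). The nucleoporin genes Nup50, which helps to release cargo from importin alpha, and Nup153, of the nuclear basket, stood at 155 ± 8.45 and 157 ± 10.1 CPM and at 393 ± 10.8 and 411 ± 27.3 CPM. The groups overlapped for all 5 of these genes.

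Rcc1, the exchange factor that loads Ran with GTP on chromatin, and Tpx2, a spindle assembly factor that importin alpha binds, were the 2 genes of the list whose groups did not overlap, beside 20.9% of all tested genes, and they are named after their values were seen. Rcc1 was at 277 to 297 CPM in the WT set and 303 to 335 CPM in the knockout set. Tpx2 was at 53.3 to 61.7 and 47.9 to 51.1 CPM. Neither passed the test (limma adjusted p = 0.0549 and 0.0552).

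**Figure D4:**
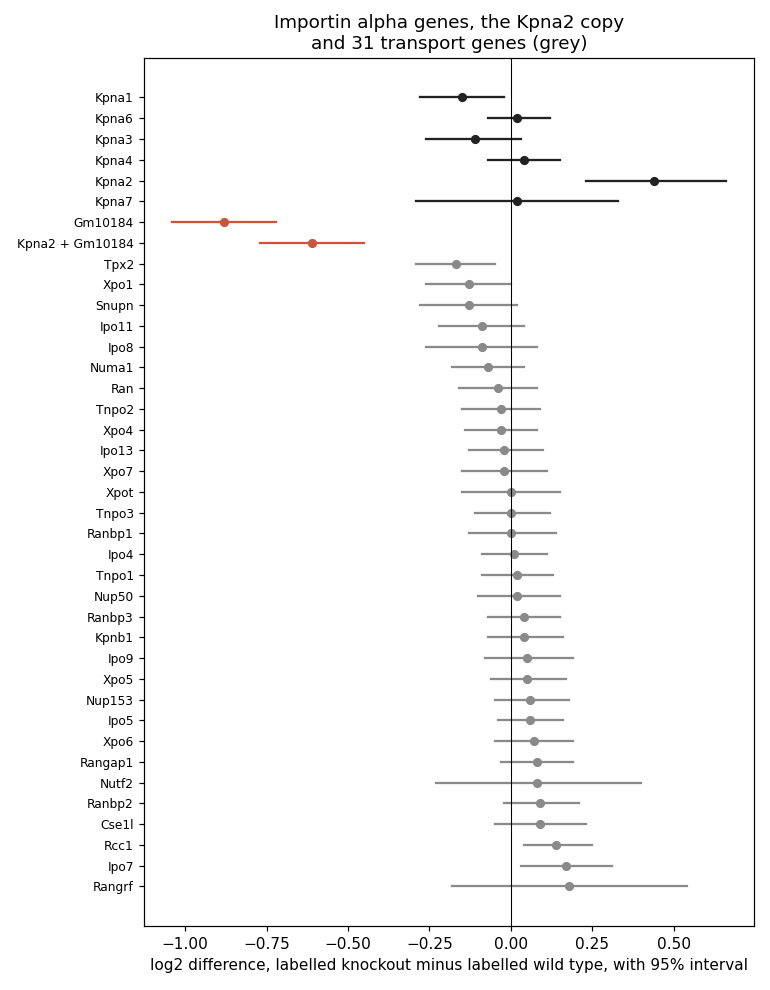
Log2 difference, labelled knockout minus labelled wild type, with its 95% interval from limma, for the 6 importin alpha genes (black), Gm10184 and its sum with Kpna2 (red) and the 31 transport genes (grey). Kpna2 lies at 0.44, Gm10184 at -0.88 and the sum at -0.61, whereas the grey points stay between -0.17 and 0.18.

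The surroundings of the members were compared in the same fit. Of 38 tested genes within 1 Mb of Kpna2, 2 rose and 2 fell, that is 10.5%, beside 16.9% of all tested genes. These were Taco1os (1.61 ± 0.400 to 2.54 ± 0.550 CPM) and Gm10840 (22.7 ± 0.697 to 29.3 ± 0.915 CPM), which rose, and the sodium channel gene Scn4a (3.72 ± 0.638 to 2.36 ± 0.290 CPM) and the calcium channel subunit gene Cacng5 (9.55 ± 1.6 to 7.24 ± 0.557 CPM), which fell. None of the 12 tested genes within 0.5 Mb of Kpna2 was called. Around the other members the share called within 1 Mb ran from 4.17% of 24 genes at Kpna3 to 24.0% of 25 at Kpna7.

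Gm10184 lies in a stretch with few genes. None of the 5 tested genes within 1 Mb of it was called, but 8 of 17 within 2 Mb were, 3 higher and 5 lower, that is 47.1% beside 16.9% of all tested genes. All 8 lie on the same side, 1.12 to 1.94 Mb away between starts, where 13 of the 17 tested genes are; on the other side 1 tested gene lies beyond 1 Mb. They include Ston1, an endocytic adaptor (21.8 ± 2.31 to 34.0 ± 4.92 CPM), and Lhcgr, which encodes the luteinizing hormone receptor (12.6 ± 1.72 to 6.97 ± 0.887 CPM), which were named after their values were seen. Lhcgr is itself one of the 8 Leydig markers, of which 4 fell, and the part of Leydig cells in its fall was not tested.

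**Figure D5:**
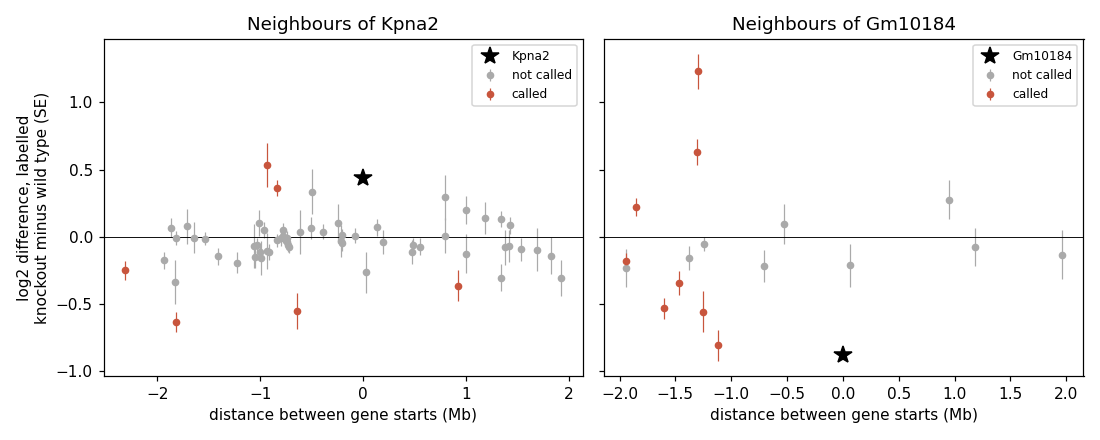
Log2 difference with its SE for tested genes within 2 Mb of Kpna2 (left) and of Gm10184 (right), against the distance between gene starts in Mb, with genes called by limma in red and the gene itself as a star. Around Kpna2 4 of 38 genes within 1 Mb are red, and around Gm10184 the 8 red points all lie between 1.12 and 1.94 Mb on the left.

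For each member the genes with the most similar course over the 8 libraries were found by Pearson's r of log2(CPM + 0.5), among about 11060 genes of at least 5 CPM. With 8 points that share library and depth, so large a search yields high r for any gene, and r is given as a description. For Kpna2 the closest were Tsnaxip1 (r = 0.976), Adam32 (0.973) and Ap3s1-ps2 (0.966), and after the group means were subtracted Gcnt3 (0.973), Ube2d2b (0.971) and Fn1 (0.967). Tsnaxip1 stood at 304 ± 3.97 and 332 ± 14.0 CPM and was not called (limma adjusted p = 0.0661). For Kpna1 they were Klk1b9, Gtf3c3 and Sycp1 (each 0.975), of which Klk1b9, a kallikrein, fell from 15.5 ± 3.03 to 6.18 ± 2.72 CPM and Sycp1, of the synaptonemal complex, from 177 ± 20.2 to 143 ± 18.5 CPM. For Kpna3 they were Kif5b (0.975), Snhg17 (0.967) and Rxylt1 (0.961). C2cd6 (0.986), Arhgap5 (0.957) and Cdkl2 (0.951) were closest to Kpna4. Tex47 (0.981), Dcun1d5 (0.953) and Arf2 (0.950) were closest to Kpna6, and Pgbd1 (0.985), Gatd1 (0.951) and Grik5 (0.948) to Kpna7. None of these lists held another importin alpha gene.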

How the data were processed

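The authors deposited a per-library scaled signal, named CPM in the file, for 24988 genes. Per the submitters' processing notes it was made with Trimmomatic, Subread and featureCounts on GRCm39 (mm39), while versions, strand and the treatment of multi-matching reads are not given there. Columns were matched to titles by number, taking control as wild type. All values (100%) were whole multiples, within 0.01, of each column's smallest value above 0, which gave back whole reads. The plan had assumed plain CPM, and its log-scale test was kept. Limma 3.58.1 (R 4.3.3, mean-variance trend) was fitted on log2(CPM + 0.5) for genes of at least 0.5 CPM in the mean, with Benjamini-Hochberg adjustment over all of them. Symbols matched 24890 identifiers. Lengths, positions and transcripts are those of GENCODE M21 on GRCm38, another build than the authors used. MAFFT 7.526 aligned sequences. Genes named by a set rule are the members, set partners, called neighbours of Kpna2 within 1 Mb and the 3 most similar genes per member. Marker genes named for their own values are among the first 2 of their lists, except Lhcgr. Named outside these rules are Gm10184, Rcc1, Tpx2, Ston1, Lhcgr and the genes whose span overlaps Kpna1 or Kpna7. Members and lists were chosen with earlier results of these data known. Alternatives included edgeR 4.0.16 and DESeq2 1.42.0 on the recovered reads.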

Additional observations from a re-analysis of the deposited data

Results flagged for a closer look

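In 36 groups of 4 libraries, 2 had a library far from the other 3, where chance gives about 1 in 20. The share of Kpna6 in the sum of the 6 importin alpha genes was 54.0% in wild-type replicate 3, against 55.4% to 55.5% in the other 3 libraries of its group. Ran was at 320 CPM in wild-type replicate 1, against 301 to 303 CPM in the other 3.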

How the results depend on the processing

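The Kpna2 difference of 0.44 kept its direction and its call in 18 alternatives, at 0.38 to 0.55 without 1 library each, and turned to -0.61 when Gm10184 was added. No call changed for Kpna1 (-0.18 to -0.11 without 1 library), Kpna3 (-0.16 to -0.08) or Kpna4 (0.02 to 0.08). The uncalled differences of Kpna6 and Kpna7 lie near 0 and changed sign. Kpna6 went to -0.0125 with quantile normalization and ran from -0.000444 to 0.0411 without 1 library, negative without knockout replicate 2. Kpna7 ran from -0.0895 to 0.134, and was -0.0895, -0.0084 and -0.061 without wild-type replicate 3, knockout replicate 1 and knockout replicate 3. The count of transport genes called went from 0 to 1 with median ratio scaling and quantile normalization and to 2 with DESeq2, and was 0 to 2 without 1 library each.

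The values showed no pairing of the libraries by replicate number (r of same-numbered deviations from -0.03 to 0.04, of others from -0.06 to 0.07). The labels do not say whether the numbers mark a shared litter or day, and these r cannot exclude it. With the replicate block Kpna2 was at 0.443 and no call of a member changed.

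Shares depend on the length used, given here for the WT and then the knockout set. By the longest annotated transcript they were 10.6% and 9.31% for Kpna1, 6.51% and 8.78% for Kpna2, 7.37% and 6.65% for Kpna3 and 19.2% in both for Kpna4. Without division by length they were 9.15% and 8.13% for Kpna1, 2.29% and 3.13% for Kpna2, 5.14% and 4.69% for Kpna3, 29.0% and 29.4% for Kpna4, 53.8% and 54.0% for Kpna6, and 0.634% and 0.636% for Kpna7. With Gm10184 added and the merged exons of Kpna2 as the length, Kpna1 was at 5.51% and 5.52% and Kpna2 at 29.9% and 21.9%. Kpna3 was then at 6.11% and 6.29%, Kpna4 at 16.6% and 19.0%, and Kpna6 at 40.8% and 46.2%, and Kpna7 was at 1.03% in the WT set. This alternative was chosen after the data were seen. Within 0.5 Mb, 0 of 12 tested neighbours of Kpna2, 0 of 18 of Kpna3 and 0 of 11 of Kpna4 were called, and 7 of 32 (21.9%) of Kpna6. Within 2 Mb, 4 of 47 (8.51%) of Kpna1, 6 of 51 (11.8%) of Kpna3 and 15 of 76 (19.7%) of Kpna7 were called, beside 16.9% of all tested genes.

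Kpna7 rests on 97 to 164 reads per library, which limits what its interval can show.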
